A study of Rattus norvegicus with 21 samples.

Results

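The comparison of 129.2 mg/kg tert-butylphenyl diphenyl phosphate (BPDP) with its vehicle, corn oil, takes in the 3 liver arrays whose titles give that dose and the 6 whose titles give 0 mg/kg. These are 9 of the 21 arrays of the series. BPDP is a triaryl phosphate that serves as flame retardant and plasticiser. Male Harlan Sprague-Dawley rats, of an age not stated in the labels, received it by oral gavage once a day for 4 days, and liver was taken on day 5. The vehicle rats received corn oil alone by the same route, and all 9 livers come from rats of the same strain and sex, with no genetic alteration named. The dose, 0.338 mmol/kg by the treatment protocol, is the second lowest of 5 in a dose-response study that also used 64.6, 258.1, 516.2 and 1032.5 mg/kg with 3 arrays each. The treatment protocol counts 5 vehicle rats while 6 vehicle arrays are listed. No label says that arrays of a group come from separate animals. The p-values of single genes thus rest on the spread between arrays within the dose groups, pooled over all 21 arrays. That spread may be partly technical.

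Liver runs much of its metabolism on a daily rhythm. The transcription factors Bmal1 and Clock or Npas2 switch on Per, Cry, Nr1d1 and Nr1d2 and the output genes Dbp and Tef, while the Per, Cry and Nr1d products act back on them as repressors. The liver also clears foreign chemicals through oxidation, conjugation and efflux, and the receptors CAR and PXR, the aryl hydrocarbon receptor and the oxidative stress factor Nrf2 each induce a set of these genes. Some phosphate triesters can be cleaved by esterases. The hour at which each liver was collected is not given in the sources used here.

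Levels below are log2 signals of RMA (robust multi-array average, which corrects, quantile-normalizes and summarises the probes of a probe set), and a difference of 1 is a change of 2-fold. Across probe sets, r between arrays ran from 0.984 to 0.995. The median probe set shifted by -0.01 between the groups. As a reading of RNA integrity, the 5' control probe sets of Gapdh and beta-actin minus the 3' ones gave a mean of -1.73 ± 0.24 (SD, n = 3) at 129.2 mg/kg and -1.95 ± 0.29 (n = 6) in the vehicle group, a difference of 0.22 (two-sided exact permutation test, p = 0.262, where 3 against 6 arrays cannot go below 0.0238). Vehicle replicate 6 stood farthest from its own group, with a mean r of 0.989. The tissue label matched its markers: Alb, serum albumin, read 15.34 or 15.35 on all 9 arrays, and Ttr, transthyretin, 14.78 to 14.88. No member of the hepatocyte list or of the 7 lists for other liver and blood cell types passed the test.

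With limma and Benjamini-Hochberg adjustment over 31042 probe sets, 108 probe sets (0.348%) changed at an adjusted p under 0.05. Of these, 69 (0.222%) were higher and 39 (0.126%) lower than in the vehicle group. Among 14217 genes read by 1 probe set each, 74 (0.521%) were called, 50 higher (0.352%) and 24 lower (0.169%), and the median change over all genes was -0.01. In all 74 the 3 treated arrays lay beyond the 6 vehicle arrays, a separation that 5.04% of all genes showed. Of the 108 probe sets 107 were separated in this way, against 4.18% of all probe sets (2.32% with the treated arrays higher, 1.86% lower). The change reached 2-fold in 19 of the higher and 11 of the lower genes. Of the called probe sets 23 name no gene or several, and their changes ran from -1.19 to 1.72. The number of called probe sets rested on single arrays: it fell to 71, 70 and 67 without vehicle replicate 1, 3 or 5 and to 46, 34 and 44 without treated replicate 1, 2 or 3. Of the 74 genes, 22 remained called with each of the 9 arrays left out in turn, and 32 did so in at most 4 of the 9 fits. Where a called gene had a second probe set that names it alone, the next brightest one was called in 4 genes (Nr1d2, Usp2, Lgalsl and Ptger3). It missed the threshold in 25 and had the opposite sign in 3 (Bri3, Pter and Tbcel). Folds below are those of the brightest probe set, and the next brightest one is given for only some of these genes.

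**Figure D1:**
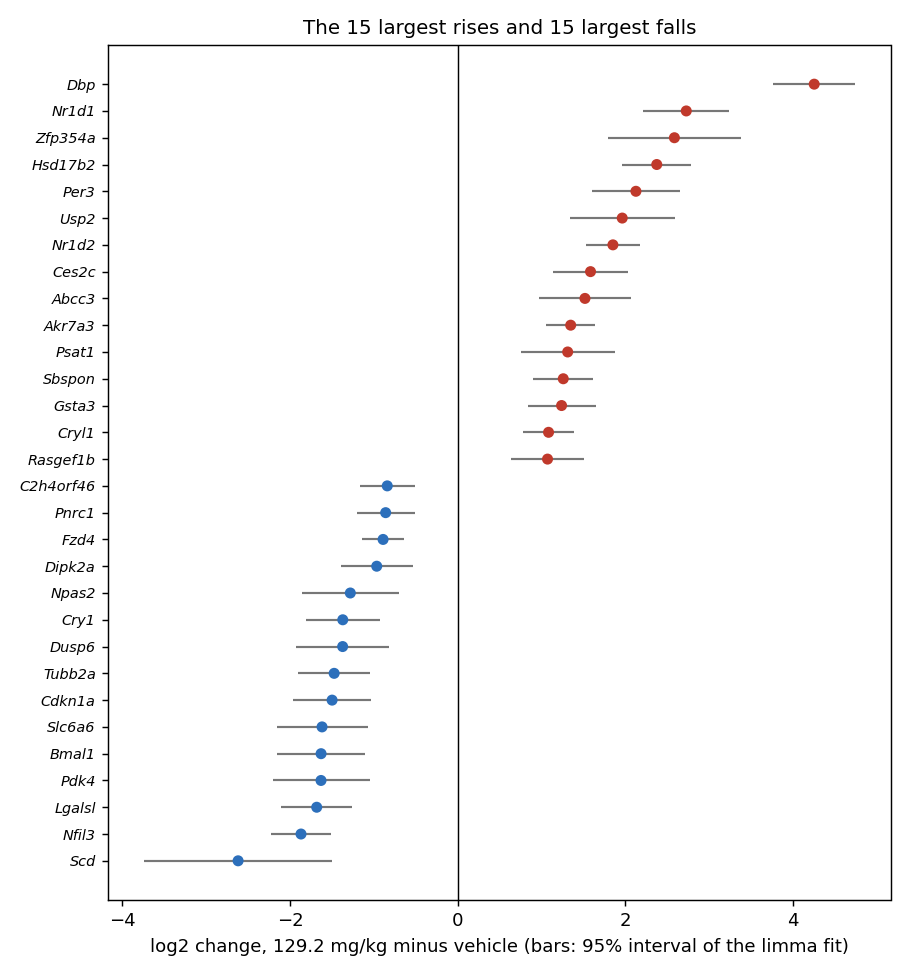
Log2 change at 129.2 mg/kg against vehicle (x axis) for the 15 largest rises and the 15 largest falls among called genes, with points for the limma estimate and bars for its 95% interval. Dbp lies farthest to the right at 4.25, and Scd has the widest interval of the genes drawn.

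Clock genes held the 2 largest rises. Because the hour of liver collection is not given, it could not be compared between the groups. Among 15 measured core clock genes 3 rose and 3 fell, and among 8 clock output genes 3 rose and 1 fell, where 0.352% of all genes rose and 0.169% fell. The genes that rose were Nr1d1, Nr1d2, Per3, Dbp, Tef and Usp2, and those that fell were Bmal1, Npas2, Cry1 and Nfil3. The core list's median change was 0.09 and that of the output list 0.66, against -0.01 over all genes. All lists in this report were chosen with earlier results of these data known, so their counts are no independent evidence. The promoters of Bmal1, Nr1d1 and Tef are shown because a search found in them the letters of a motif of the clock factors. Of the 10 called clock genes 9 matched a RefSeq promoter of build GRCr8 (Cry1 did not), and the 250 bases before the start were searched on both strands. The sequences below run 5′ to 3′ on the gene's strand and end at the last base before the listed start, with the matched motif in capitals: the ROR core in Bmal1 (chr1:176766078-176766327, plus strand), and the E-box in Nr1d1 (chr10:84229455-84229704, minus strand, 1 of its 2 listed starts) and Tef (chr7:115206577-115206826, plus strand).
Bmal1: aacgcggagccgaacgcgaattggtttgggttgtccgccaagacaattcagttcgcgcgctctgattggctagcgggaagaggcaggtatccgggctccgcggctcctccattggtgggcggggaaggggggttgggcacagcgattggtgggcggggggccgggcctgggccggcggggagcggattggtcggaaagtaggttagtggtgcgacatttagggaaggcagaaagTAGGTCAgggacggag
Nr1d1: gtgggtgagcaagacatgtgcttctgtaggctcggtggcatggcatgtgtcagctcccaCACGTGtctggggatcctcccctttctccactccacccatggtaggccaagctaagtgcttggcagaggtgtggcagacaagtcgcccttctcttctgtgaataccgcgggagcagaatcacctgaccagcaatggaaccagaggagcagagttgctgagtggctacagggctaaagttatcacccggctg
Tef: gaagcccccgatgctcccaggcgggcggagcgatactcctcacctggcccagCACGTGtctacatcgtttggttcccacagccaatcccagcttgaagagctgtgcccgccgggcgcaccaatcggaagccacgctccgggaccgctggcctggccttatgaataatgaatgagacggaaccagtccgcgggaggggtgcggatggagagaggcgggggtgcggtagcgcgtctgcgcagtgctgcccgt
The E-box CACGTG, bound by Bmal1 with its partners, was in 2 of the 9 promoters, at 191 to 186 bases before the start of Nr1d1 and 198 to 193 before that of Tef, and in 5.59% of all 33469 promoters. The core TAGGTCA, shared by the sites of the ROR activators and the Nr1d repressors, was in 1 of the 9, at 16 to 10 bases before the start of Bmal1, and in 2.26% of all. The D-box TTATGTAA, the site of Dbp and Nfil3, was in none of the 9 and in 0.828% of all. The antioxidant element TGACNNNGC lay in the promoter of Usp2 alone of the 9. These motifs do not overlap in the 3 promoters shown, and a match is a description of the letters only.

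Dbp, an activator that passes the rhythm on to metabolic genes, read 10.31, 9.61 and 10.19 on the 3 treated arrays and 5.44 to 6.10 (median 5.77) on the 6 vehicle arrays. All treated arrays stood far above the vehicle arrays, with nothing in between. The rise was 19.1-fold (log2 change 4.25, SE 0.23, adjusted p = 1.97e-09). Tef, of the same family, read 9.52, 9.34 and 9.59 against 8.24 to 8.69 (median 8.48), again without overlap, and rose 2.0-fold (SE 0.14 on the log2 scale, adjusted p = 0.00163). Usp2, a deubiquitinase with a strong liver rhythm, read 9.09, 8.41 and 9.06 against 6.24 to 7.35 (median 6.91). Treated replicate 2 was the lowest of the 3 for Dbp, Tef and Usp2 alike. Usp2 rose 3.90-fold (adjusted p = 0.00327), and its other probe set rose by 1.37 (adjusted p = 0.0435).

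The nuclear receptors Nr1d1 and Nr1d2, repressors of Bmal1, moved together. Nr1d1 read 9.35, 9.0 and 9.17 on the treated arrays against 5.77 to 6.81 (median 6.62). Nr1d2 read 10.33, 10.08 and 10.22 against 7.88 to 8.62 (median 8.46). In both genes the lowest treated array was well above the highest vehicle array. Nr1d1 rose 6.62-fold (log2 change 2.73, SE 0.25, adjusted p = 4.04e-06) and Nr1d2 3.61-fold (log2 change 1.85, SE 0.16, adjusted p = 1.87e-06). Per3, a Period gene, read 7.5, 6.85 and 7.80 against 4.83 to 5.46 (median 5.31). Its treated arrays did not overlap the vehicle arrays but differed among themselves by close to 1 unit. Per3 rose 4.37-fold (adjusted p = 0.000221), while its next brightest probe set gave a change of 0.09 (adjusted p = 0.933). The 4.37-fold rise starts from a dim signal, with a vehicle mean of 5.26 near the lower quartile of the arrays (5.03).

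On the falling side, Nfil3, a repressor that competes with Dbp for the D-box, read 8.35, 8.43 and 8.59 on the treated arrays and 10.00 to 10.68 (median 10.27) in the vehicle group. The 3 treated arrays lay close together and below every vehicle array. Nfil3 fell 3.65-fold (log2 change -1.87, SE 0.17, adjusted p = 4.04e-06). Bmal1, the central activator, read 6.61, 7.36 and 6.71 against 8.08 to 8.84 (median 8.55). Cry1, a cryptochrome repressor, read 7.08, 7.09 and 6.73 against 7.97 to 8.88 (median 8.20). Neither gene's groups overlapped, and treated replicate 2 was the highest of the 3 for Bmal1. Bmal1 fell 3.09-fold (SE 0.25 on the log2 scale, adjusted p = 0.00367) and Cry1 2.59-fold (SE 0.21, adjusted p = 0.00350). Npas2, which can replace Clock as the partner of Bmal1, read 7.87, 7.73 and 7.42 against 8.77 to 9.11 (median 8.97) and fell 2.43-fold (adjusted p = 0.0481). The Npas2 call was lost without any 1 of the 9 arrays (adjusted p from 0.0734 to 0.255), whereas the other 9 clock calls held in each of those fits. For Bmal1 the limma adjusted p reached 0.0479 in them, and its call was lost with the replicate number as a block (adjusted p = 0.0827).

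The remaining core members did not pass the test. Per1 gave a log2 change of 0.51 (adjusted p = 0.116), Per2 0.09 (adjusted p = 0.943), Cry2 0.63 (adjusted p = 0.174) and Clock -0.30 (adjusted p = 0.656). Klf15 and Klf9, Krüppel-like factors that also cycle in liver, rose. Klf15 read 10.29, 9.93 and 10.29 against 8.84 to 9.48 (median 9.12) and rose 2.06-fold (adjusted p = 0.00257). Klf9 read 11.996, 11.34 and 11.78 against 10.45 to 11.24 (median 10.78) and rose 1.82-fold (adjusted p = 0.0430). In neither gene did the groups overlap, but for Klf9 the lowest treated array was only just above the highest vehicle array. The Klf9 call was lost without treated replicate 1 or 3 or vehicle replicate 1, 2, 3 or 4 (adjusted p 0.0656 to 0.323).

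**Figure D2:**
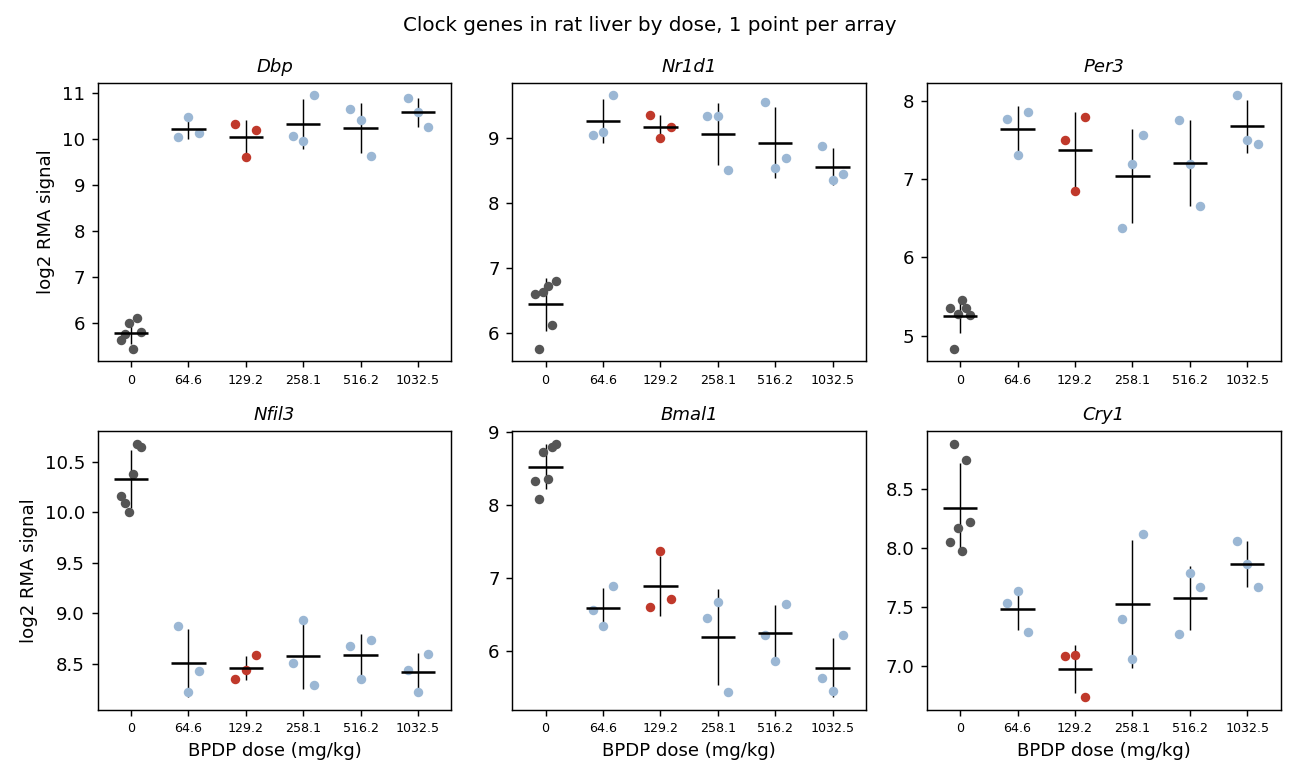
Log2 signal (y axis) of 6 clock genes on each array by dose in mg/kg (x axis), with the vehicle in grey, 129.2 mg/kg in red, the other doses in blue, and black bars for the mean ± SD of a group. The red points lie beyond all grey points in every panel, above them for Dbp, Nr1d1 and Per3 and below them for Nfil3, Bmal1 and Cry1.

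Genes that handle foreign chemicals were also among the rises, and the counts of their lists stand beside 0.352% of all genes higher and 0.169% lower. Of 25 measured Nrf2 targets 5 rose and 0 fell (median change 0.11), of 28 conjugating enzymes 3 rose and 0 fell (0.21), of 15 CAR and PXR targets 2 rose and 0 fell (0.18) and of 19 drug and bile salt transporters 1 rose and 0 fell (-0.01). Some genes stand on more than 1 of these lists. The 8 aryl hydrocarbon receptor targets held no call (median -0.12). The promoter of Gclm (chr2:213031885-213032134, plus strand, GRCr8) is shown with its antioxidant element, the site of Nrf2, in capitals as it reads on this strand, the motif lying on the other strand at 172 to 164 bases before the start.
Gclm: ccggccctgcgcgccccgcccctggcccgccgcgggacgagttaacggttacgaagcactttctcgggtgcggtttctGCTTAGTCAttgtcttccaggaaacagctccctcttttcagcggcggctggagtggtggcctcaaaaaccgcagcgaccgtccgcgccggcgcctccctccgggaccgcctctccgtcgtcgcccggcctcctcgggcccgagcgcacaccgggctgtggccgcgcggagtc
Of the 8 genes called on the Nrf2 and conjugating lists 7 matched a promoter (Abcc3 did not). The element was in 3 of these 7, those of Gclm, Ephx1 and Gsta3, and in 10.1% of all promoters. Here and for the clock genes, a gene was counted if any of its listed starts held the motif. The share of all promoters is per start, and Ephx1 and Gsta3 have 2 listed starts each.

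Akr7a3, an aldehyde reductase, read 12.52, 12.87 and 12.72 on the treated arrays against 11.20 to 11.81 (median 11.26). Gclm, the modifier subunit of the enzyme that limits glutathione synthesis, read 11.98, 11.86 and 11.66 against 10.31 to 10.997 (median 10.88). Neither gene's groups overlapped, although vehicle replicate 4 was high for Akr7a3. Akr7a3 rose 2.55-fold (log2 change 1.35, SE 0.14, adjusted p = 2.18e-05) and Gclm 2.09-fold (log2 change 1.06, SE 0.14, adjusted p = 0.000549). Abcc3, a basolateral pump for glucuronides and bile salts, read 7.98, 9.10 and 8.26 against 6.65 to 7.24 (median 6.94). Treated replicate 2 stood above the other treated arrays, and all 3 were above the vehicle arrays. Abcc3 rose 2.87-fold (SE 0.26 on the log2 scale, adjusted p = 0.0102), a call lost without treated replicate 2 (adjusted p = 0.135).

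Gsta3, a glutathione transferase, read 9.41, 9.47 and 8.93 on the treated arrays against 7.54 to 8.39 (median 8.03) and did not overlap. It rose 2.36-fold (SE 0.19 on the log2 scale, adjusted p = 0.00409), a call lost without treated replicate 2 (adjusted p = 0.0565). Gstt3, of another class of the family, read 12.08, 12.07 and 12.04 against 10.70 to 11.48 (median 11.21). Its treated arrays were nearly identical and above all vehicle arrays, with a rise of 1.88-fold (adjusted p = 0.0294). Ugt2b1, a glucuronosyltransferase, rose 1.60-fold (adjusted p = 0.0435), from 12.46 to 13.10 (median 12.74) in the vehicle group to 13.55, 13.53 and 13.34. Other members of these families were above the vehicle mean without passing the test, such as Gstm1 with a log2 change of 0.40 (adjusted p = 0.0945) and Mgst2 with 0.33 (adjusted p = 0.108). The Gstt3 call was lost without treated replicate 1, 2 or 3 or vehicle replicate 2, 3, 5 or 6 (adjusted p 0.0508 to 0.154), and the Ugt2b1 call without treated replicate 1, 2 or 3 or vehicle replicate 1, 3, 5 or 6 (adjusted p 0.0765 to 0.250).

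Ephx1, microsomal epoxide hydrolase and a member of the Nrf2, CAR and p53 lists, read 13.45, 13.61 and 13.58 against 12.63 to 13.20 (median 12.90) and rose 1.56-fold (adjusted p = 0.0308). Aldh1a1, which oxidises retinal and other aldehydes, read 13.11, 13.20 and 13.14 against 12.10 to 12.74 (median 12.42) and rose 1.66-fold (adjusted p = 0.0243). Aox1, aldehyde oxidase, read 12.79, 12.91 and 13.05 against 12.24 to 12.61 (median 12.45) and rose 1.38-fold (adjusted p = 0.0266). The 3 genes showed small changes on closely spaced arrays that did not overlap. The Ephx1 call was lost without treated replicate 1, 2 or 3 or vehicle replicate 1, 2, 5 or 6 (adjusted p 0.0571 to 0.185), the Aldh1a1 call without treated replicate 1, 2 or 3 or vehicle replicate 3 or 5 (adjusted p 0.0535 to 0.152) and the Aox1 call without treated replicate 1, 2 or 3 or vehicle replicate 3 or 5 (adjusted p 0.0504 to 0.218).

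Several well-known markers of these receptors did not pass the test. Nqo1, a quinone reductase induced by Nrf2, read 8.70, 8.57 and 8.59 against 8.73 to 9.05 (median 8.94), below every vehicle array, with a log2 change of -0.31 (adjusted p = 0.738). Cyp3a23-3a1, a PXR-induced cytochrome P450, read 13.56, 13.69 and 13.67 against 13.11 to 13.44 (median 13.26), above every vehicle array (log2 change 0.38, adjusted p = 0.456). Cyp1a1, the classic gene of the aryl hydrocarbon receptor, read 5.64, 6.06 and 5.88 within the vehicle range of 5.58 to 6.12 (median 5.89, adjusted p = 0.994). The treated arrays of Nqo1 thus lay below the vehicle arrays, and those of the 5 called Nrf2 targets above them. Cyp1a2, the constitutive liver relative of Cyp1a1, gave a log2 change of -0.40 with no overlap (adjusted p = 0.164). Other Nrf2 targets read near the vehicle level, among them Hmox1 with a change of -0.13 (adjusted p = 0.970) and Txnrd1 with 0.09 (adjusted p = 0.957).

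**Figure D3:**
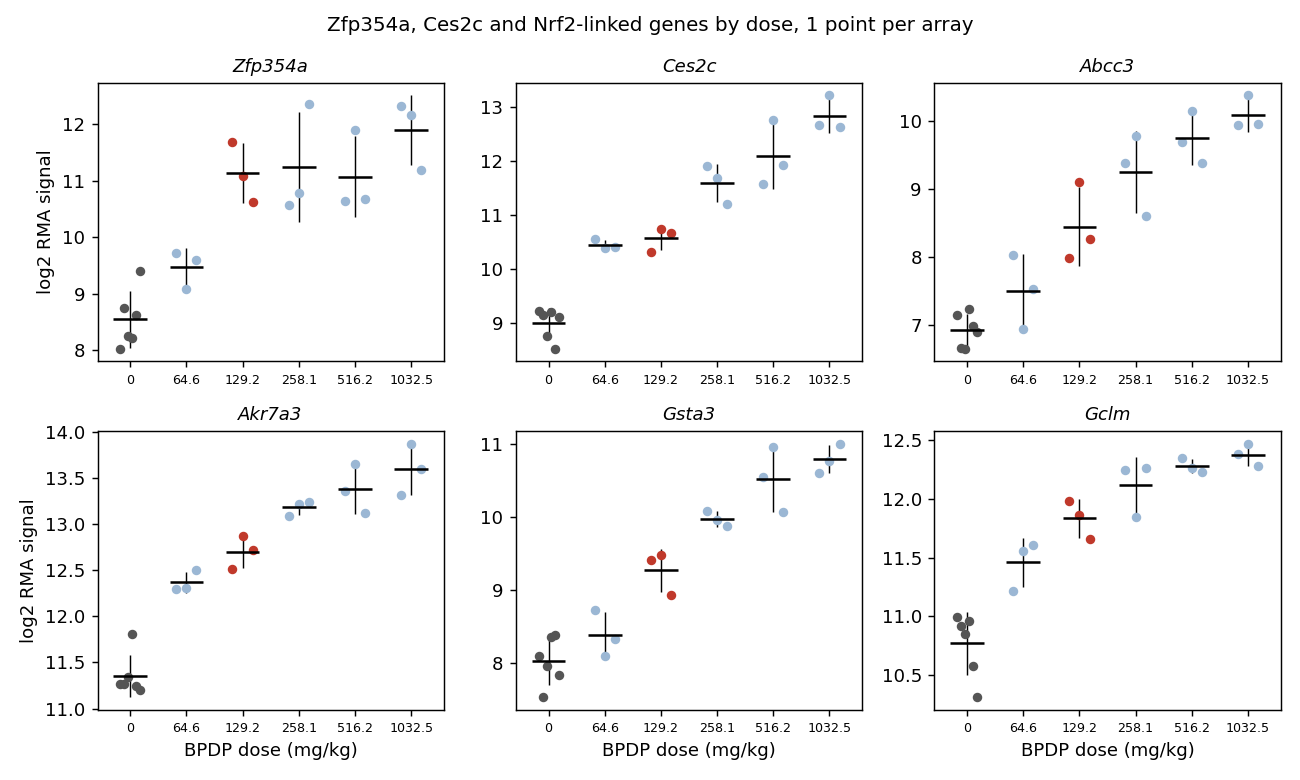
Log2 signal (y axis) of 6 genes on each array by dose in mg/kg (x axis), with the vehicle in grey, 129.2 mg/kg in red, the other doses in blue, and black bars for the mean ± SD. The red points lie above all grey points in every panel, and the means of Ces2c, Abcc3 and Gsta3 are higher still at 258.1 mg/kg and above.

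Ces2c, a carboxylesterase of the liver endoplasmic reticulum, was 1 of 2 called among 14 esterases and lipases (median 0.03). It read 10.31, 10.74 and 10.66 on the treated arrays against 8.52 to 9.21 (median 9.12), without overlap. Ces2c rose 3.00-fold (log2 change 1.59, SE 0.21, adjusted p = 0.000978). The other was Lipa, lysosomal acid lipase, which read 11.48, 11.34 and 11.39 against 11.69 to 12.04 (median 11.87) and fell 1.38-fold (adjusted p = 0.0169). The Ces2c call held with each of the 9 arrays left out, and the Lipa call was lost without treated replicate 2 or 3 (adjusted p 0.105 to 0.140).

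Among 17 constitutive and sex-biased P450 and steroid enzymes 2 rose and 0 fell (median 0.08). Hsd17b2, a dehydrogenase that inactivates oestradiol and testosterone, read 13.26, 12.50 and 13.08 against 10.37 to 11.02 (median 10.48). The treated arrays were more than 1 unit above every vehicle array. Hsd17b2 rose 5.19-fold (log2 change 2.38, SE 0.20, adjusted p = 1.87e-06), and the call held in all 9 fits with an array left out. Cyp2c12, known as a female-predominant P450 of rat liver, read 11.88, 11.43 and 11.19 against 10.42 to 10.90 (median 10.63) and rose 1.80-fold (adjusted p = 0.0191). The Cyp2c12 call was lost without treated replicate 1 or 2 (adjusted p 0.0771 to 0.197). None of 17 genes of the growth hormone axis was called (median -0.15).

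Lipid genes held the largest fall. Scd, the desaturase that makes oleate from stearate, read 9.49, 8.16 and 8.08 on the treated arrays and 9.76 to 12.26 (median 11.10) in the vehicle group. Treated replicate 1 was only slightly below the lowest vehicle array, and both groups were widely spread. Scd fell 6.14-fold (log2 change -2.62, SE 0.54, adjusted p = 0.0349). It was the only call among 23 genes of fatty acid and triglyceride synthesis (0 higher, 1 lower, median -0.14). Fasn, fatty acid synthase, read 11.005, 11.40 and 9.99 within and below a vehicle range of 10.47 to 12.27 (median 10.86, log2 change -0.34, adjusted p = 0.925). Srebf1, the transcription factor of this pathway, changed by 0.12 (adjusted p = 0.972) and Acaca, acetyl-CoA carboxylase, by -0.07 (adjusted p = 0.974), and neither passed. The Scd call was lost without treated replicate 2 or 3 or vehicle replicate 1, 2, 3, 4 or 5 (adjusted p 0.0529 to 0.224), and also in a fit of the 9 arrays alone (adjusted p = 0.0585) and with an intensity trend (adjusted p = 0.111).

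Among 32 PPAR alpha targets 2 rose and 2 fell (median 0.11). Pdk4, the kinase that shuts pyruvate out of mitochondrial oxidation, read 8.83, 8.10 and 8.60 against 9.51 to 10.77 (median 10.22). Plin2, the main coat protein of liver lipid droplets, read 12.24, 12.36 and 12.04 against 12.72 to 13.40 (median 13.00). All treated arrays were below all vehicle arrays for both. Pdk4 fell 3.09-fold (SE 0.28 on the log2 scale, adjusted p = 0.00840) and Plin2 1.75-fold (SE 0.15, adjusted p = 0.0169). Ehhadh, the bifunctional enzyme of peroxisomal beta-oxidation, rose 1.77-fold (adjusted p = 0.0481), at 12.69, 12.22 and 12.76 against 11.57 to 11.95 (median 11.69). Decr1, of mitochondrial oxidation of unsaturated fatty acids, rose 1.34-fold (adjusted p = 0.0447), at 12.96, 12.87 and 13.26 against 12.47 to 12.73 (median 12.59). The members of this list thus moved in both directions. The Pdk4 call was lost without treated replicate 2 (adjusted p = 0.101), the Plin2 call without treated replicate 1, 2 or 3 (adjusted p 0.0539 to 0.145), the Ehhadh call without treated replicate 1, 2 or 3 or vehicle replicate 1, 2, 3, 4 or 5 (adjusted p 0.0518 to 0.280) and the Decr1 call without treated replicate 1, 2 or 3 or vehicle replicate 1, 2, 3, 5 or 6 (adjusted p 0.0555 to 0.312).

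Acot1, an acyl-CoA thioesterase and PPAR alpha target, read 3.84, 3.43 and 3.81 against 3.39 to 3.70 (median 3.63), below the lower quartile of the arrays (5.03) in both groups, and no fold is given (adjusted p = 0.993). Cyp4a1, a fatty acid omega-hydroxylase of the same list, gave a log2 change of 0.44 (adjusted p = 0.732), and Cpt1a, the gate of mitochondrial oxidation, -0.13 (adjusted p = 0.972). Neither passed the test. Acat1, of ketone body metabolism, rose 1.5-fold (adjusted p = 0.0414). Osbpl11, an oxysterol-binding protein, rose 1.78-fold (adjusted p = 0.0364). The Acat1 call was lost without treated replicate 1, 2 or 3 or vehicle replicate 1, 2, 3 or 5 (adjusted p 0.0555 to 0.265), and the Osbpl11 call without treated replicate 1, 2 or 3 or vehicle replicate 1, 3, 5 or 6 (adjusted p 0.0513 to 0.170).

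The 19 measured genes of cholesterol synthesis held no call, with a median change of 0.22 and 14 of 19 above 0. Their groups overlapped in every member, and Msmo1, a sterol methyl oxidase, had the largest change at 0.78 (adjusted p = 0.196). None of 14 genes of bile acid synthesis was called either (median 0.18). Cyp7a1, the rate-limiting enzyme of bile acid synthesis, read 12.35, 13.07 and 12.49 on the treated arrays and 9.87 to 11.86 (median 11.12) in the vehicle group. All 3 treated arrays were above all 6 vehicle arrays, which were widely spread. The log2 change was 1.53 (SE 0.40, adjusted p = 0.147). Cyp8b1, which directs synthesis to cholic acid, changed by 0.91 (adjusted p = 0.102) and Nr0b2, the repressor SHP, by 1.25 (adjusted p = 0.133), both with no overlap. In this list 5 of 14 genes had all treated arrays above the vehicle arrays, against 3.03% of all genes, and 1 had all below, against 2%.

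**Figure D4:**
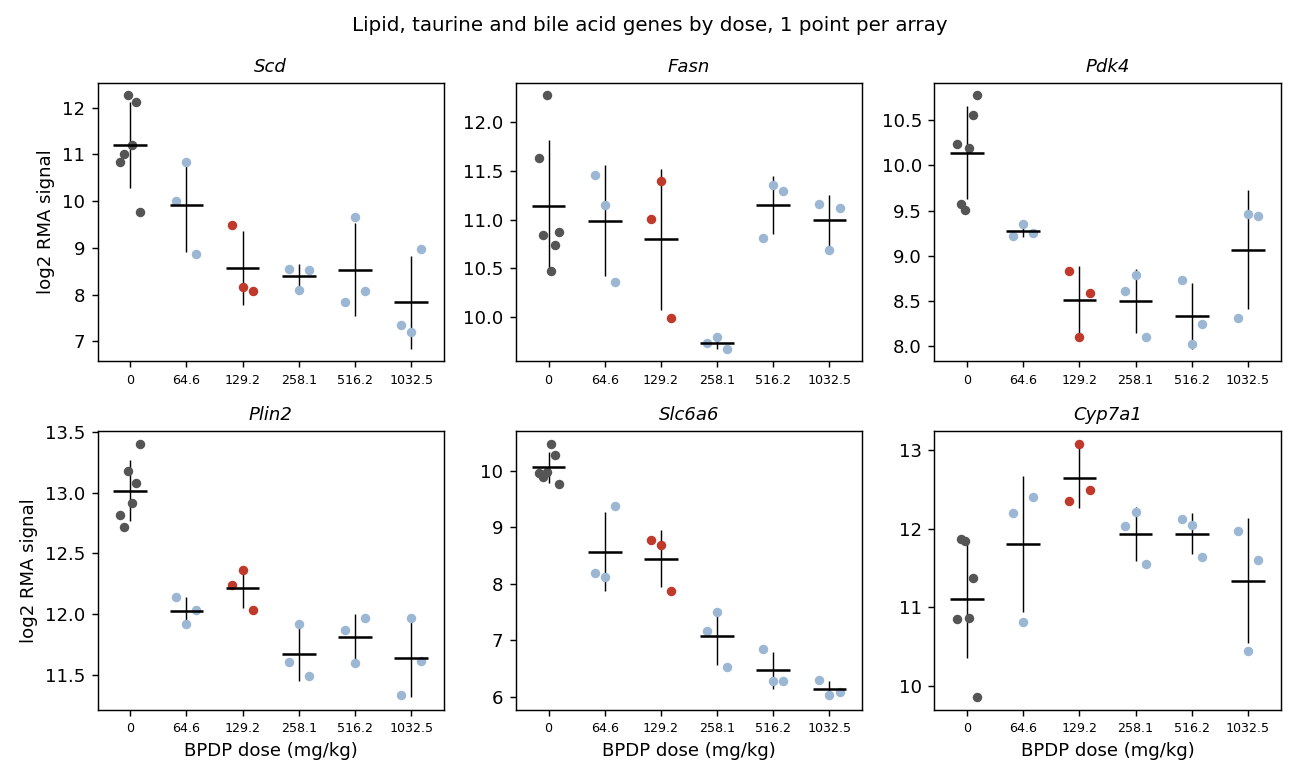
Log2 signal (y axis) of 6 genes on each array by dose in mg/kg (x axis), with the vehicle in grey, 129.2 mg/kg in red, the other doses in blue, and black bars for the mean ± SD. The red points lie below all grey points for Scd, Pdk4, Plin2 and Slc6a6, above them for Cyp7a1, and overlap them for Fasn.

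A list of taurine, tubulin and other responders was drawn up from earlier results of these data and is no independent evidence of its direction. Of its 13 measured members 1 rose and 3 fell (median -0.41). Zfp354a, a zinc finger protein of liver and kidney, read 11.69, 11.09 and 10.62 on the treated arrays against 8.03 to 9.41 (median 8.44), more than 1 unit above every vehicle array. It rose 6.0-fold (log2 change 2.59, SE 0.38, adjusted p = 0.00232). Slc6a6, the taurine transporter, read 8.78, 8.68 and 7.86 against 9.77 to 10.48 (median 9.97). Tubb2a, a beta-tubulin, read 11.21, 11.58 and 10.32 against 12.26 to 12.77 (median 12.47). Lgalsl, a galectin-like protein, read 8.57, 8.31 and 7.83 against 9.66 to 10.23 (median 9.89). In these 3 genes treated replicate 3 was the lowest array, and no treated array reached the vehicle range. Slc6a6 fell 3.07-fold (adjusted p = 0.00513), Tubb2a 2.78-fold (adjusted p = 0.00127) and Lgalsl 3.21-fold (adjusted p = 0.000230). The second probe set of Lgalsl fell by 1.61 (adjusted p = 0.00863). The Slc6a6 call was lost without treated replicate 3 (adjusted p = 0.0762).

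Cdkn1a, the cell cycle inhibitor p21 and a p53 target, read 8.39, 8.95 and 8.47 against 9.56 to 11.06 (median 10.01). Dusp6, a phosphatase of the kinase ERK, read 9.01, 8.60 and 8.84 against 9.65 to 10.71 (median 10.21). Fzd4, a Wnt receptor, read 7.54, 7.43 and 7.70 against 8.05 to 8.71 (median 8.46). All treated arrays of these genes were below the vehicle arrays. Cdkn1a fell 2.82-fold (adjusted p = 0.00232), Dusp6 2.59-fold (adjusted p = 0.0252) and Fzd4 1.85-fold (adjusted p = 0.00112). The Dusp6 call was lost without treated replicate 1, 2 or 3 or vehicle replicate 5 (adjusted p 0.0577 to 0.169), and the Cdkn1a call was lost in a fit of the 9 arrays alone (adjusted p = 0.0526) but in no fit with an array left out. Of 12 p53 targets 1 rose (Ephx1) and 1 fell (Cdkn1a), with a median of -0.04, and of 31 cell cycle genes 0 were called (median -0.10).

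Further falls were smaller. Dipk2a, a secreted kinase-like protein, read 9.68, 9.81 and 9.25 against 10.13 to 10.92 (median 10.55) and fell 1.95-fold (adjusted p = 0.0430). Pnrc1, a nuclear receptor coactivator, read 10.45, 10.42 and 10.25 against 10.80 to 11.41 (median 11.30) and fell 1.81-fold (adjusted p = 0.0243). C2h4orf46 read 5.59, 5.84 and 5.25 against 6.16 to 6.76 (median 6.36) and fell 1.79-fold (adjusted p = 0.0200). None of the 3 overlapped between groups. The Dipk2a call was lost without treated replicate 1, 2 or 3 or vehicle replicate 1, 2, 3, 4 or 5 (adjusted p 0.0555 to 0.272), the Pnrc1 call without treated replicate 1, 2 or 3 or vehicle replicate 1, 2 or 3 (adjusted p 0.0509 to 0.161) and the C2h4orf46 call without treated replicate 1 or 3 (adjusted p 0.101 to 0.185). Metabolic genes among the other falls were Tkfc, which phosphorylates dihydroxyacetone and glyceraldehyde (1.75-fold, adjusted p = 0.0294), Slc16a1, a lactate carrier (1.55-fold, adjusted p = 0.0371), Cbs, which starts the conversion of homocysteine to cysteine (1.4-fold, adjusted p = 0.0243), and Pgk1 of glycolysis (1.31-fold, adjusted p = 0.0481). Their treated arrays lay below the vehicle range. The Tkfc call was lost without treated replicate 1, 2 or 3 or vehicle replicate 1, 3 or 5 (adjusted p 0.0523 to 0.178), the Slc16a1 call without treated replicate 1, 2 or 3 or vehicle replicate 2, 3 or 5 (adjusted p 0.0617 to 0.255), the Cbs call without treated replicate 1, 2 or 3 or vehicle replicate 1, 3 or 5 (adjusted p 0.0519 to 0.154) and the Pgk1 call without any 1 of the 9 arrays (adjusted p 0.0571 to 0.255). The falls also held Ier5, an early response gene, Rnf8, a ubiquitin ligase of the DNA damage response, and Dlc1, with folds of 1.76, 1.54 and 1.31 (adjusted p = 0.0264, 0.0259 and 0.0294). Each of these calls was lost in some fits, for Ier5 without treated replicate 1, 2 or 3 or vehicle replicate 3 or 5 (adjusted p 0.0535 to 0.158), for Rnf8 without treated replicate 1, 2 or 3 or vehicle replicate 2 or 5 (adjusted p 0.0505 to 0.176) and for Dlc1 without treated replicate 1, 2 or 3 or vehicle replicate 1, 2, 5 or 6 (adjusted p 0.0553 to 0.163).

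Of 18 ATF4 and amino acid response genes 1 rose and 0 fell (median 0.21), where 0.352% of all genes were called higher. In 6 of the 18 all treated arrays were above the vehicle arrays, against 3.03% of all genes. Psat1, a serine synthesis enzyme, read 8.99, 10.07 and 9.80 against 7.79 to 8.63 (median 8.35), with treated replicate 1 lowest of the 3 and above the vehicle range. It rose 2.48-fold (adjusted p = 0.0342), a call lost without treated replicate 2 or 3 or vehicle replicate 1, 2 or 3 (adjusted p 0.0630 to 0.277). Asns, asparagine synthetase, changed by 1.22 (adjusted p = 0.111) and Phgdh, the enzyme at the head of serine synthesis, by 0.94 (adjusted p = 0.220), neither past the threshold. Trib3, a pseudokinase induced by ATF4, changed by 1.05 on its brightest probe set (adjusted p = 0.0519), and another of its 3 probe sets rose by 1.73 (adjusted p = 0.00597). Atf4 itself changed by -0.16 (adjusted p = 0.935) and Ddit3, encoding CHOP, by 0.22 (adjusted p = 0.846).

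Chaperones lay mostly below the vehicle mean. Of 17 ER chaperones and heat shock proteins 0 were called on their brightest probe set, 16 were below and the median change was -0.30. In 5 of them all treated arrays were below the vehicle arrays, against 2% of all genes, and in 1, Herpud1, all were above, against 3.03%. Hspa5, the main ER chaperone BiP, read 13.20, 13.25 and 13.02 against 13.19 to 13.69 (median 13.43, log2 change -0.28, adjusted p = 0.456), with overlap. Hsp90b1, the ER form of Hsp90, read 12.68, 12.63 and 12.63 against 12.71 to 13.12 (median 13.03, log2 change -0.32, adjusted p = 0.371), with no overlap. Creld2, an ER stress protein, had the largest difference at -0.81 (adjusted p = 0.131). A second probe set of Pdia3, an ER protein disulphide isomerase, was called lower (log2 change -0.53, limma adjusted p = 0.0281).

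Other rises belonged to no large group. Sbspon, a secreted matrix protein, read 8.20, 7.99 and 8.07 against 6.33 to 7.16 (median 6.85). Cryl1, a dehydrogenase of the glucuronate pathway, read 9.78, 9.97 and 9.70 against 8.37 to 9.15 (median 8.74). Rasgef1b, a Ras exchange factor, read 10.13, 9.68 and 9.68 against 8.35 to 9.33 (median 8.64). The groups did not overlap in any of these genes, and the gap was narrowest for Rasgef1b. Sbspon rose 2.39-fold (adjusted p = 0.00111), Cryl1 2.12-fold (adjusted p = 0.000978) and Rasgef1b 2.10-fold (adjusted p = 0.0252). The Sbspon and Cryl1 calls held in all 9 fits with an array left out, while the Rasgef1b call was lost without treated replicate 1, 2 or 3 or vehicle replicate 1, 2 or 5 (adjusted p 0.0509 to 0.218).

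Among regulators, Tob2, an antiproliferative protein, rose 2.03-fold (adjusted p = 0.0264), at 10.58, 10.16 and 10.03 against 8.79 to 9.60 (median 9.23). Jade1, a subunit of a histone acetyltransferase complex, rose 1.82-fold (adjusted p = 0.00350), at 10.10, 10.11 and 10.16 against 9.05 to 9.57 (median 9.23), and this call held in all 9 fits. The kinase gene Pim3 rose 1.75-fold (adjusted p = 0.0124), at 10.12, 9.80 and 10.06 against 8.93 to 9.40 (median 9.18). In each of these genes the treated arrays were above the vehicle range. Enpp2, the enzyme autotaxin that makes lysophosphatidic acid, rose 1.76-fold (adjusted p = 0.00513), and Ptger3, a prostaglandin E receptor, 1.77-fold (adjusted p = 0.0264). Gch1, which starts tetrahydrobiopterin synthesis, rose 1.43-fold (adjusted p = 0.0191), and Slc25a33, a mitochondrial pyrimidine carrier, 1.74-fold (adjusted p = 0.0399). Calls were lost for Tob2 without treated replicate 1, 2 or 3 or vehicle replicate 2 (adjusted p 0.0519 to 0.242), for Pim3 without treated replicate 1 or 3 (adjusted p 0.0988 to 0.110), for Enpp2 without treated replicate 1 (adjusted p = 0.0504) and for Ptger3 without treated replicate 1, 2 or 3 or vehicle replicate 2 or 3 (adjusted p 0.0509 to 0.197). They were lost for Gch1 without treated replicate 1 or 2 (adjusted p 0.152 to 0.154) and for Slc25a33 without treated replicate 1, 2 or 3 or vehicle replicate 1, 2, 3 or 4 (adjusted p 0.0533 to 0.257).

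The rest of the higher genes rose by less than 2-fold and are given by name and fold. Baiap2l1 (1.59-fold), Tns2 (1.54-fold) and Tbcel (1.65-fold) encode proteins of the cytoskeleton. Klf16 (1.67-fold), Tfcp2 (1.42-fold) and Aebp2 (1.35-fold) encode DNA-binding regulators. Stn1 (1.34-fold) is a telomere protein, Csnk2a2 (1.31-fold) a catalytic subunit of casein kinase and Sugct (1.56-fold) a glutarate CoA-transferase. Usp54 (1.64-fold), Bri3 (1.5-fold), Pter (1.43-fold), LOC102550246 (1.88-fold) and LOC102549726 (1.56-fold) complete the list. All 14 were called on their brightest probe set with all treated arrays above the vehicle arrays. The next brightest probe set of Bri3, Pter and Tbcel had the opposite sign. The calls were lost for Baiap2l1 without treated replicate 2 (adjusted p = 0.0917), for Tns2 without treated replicate 1, 2 or 3 (adjusted p 0.0690 to 0.0926), for Tbcel without treated replicate 1 or 2 (adjusted p 0.0795 to 0.104), for Klf16 without treated replicate 1, 2 or 3 (adjusted p 0.0758 to 0.104) and for Tfcp2 without treated replicate 2 or 3 (adjusted p 0.0753 to 0.0795). They were lost for Aebp2 without treated replicate 1 or 2 or vehicle replicate 1, 2, 3, 4, 5 or 6 (adjusted p 0.0597 to 0.316), for Stn1 without treated replicate 1, 2 or 3 (adjusted p 0.0635 to 0.161), for Csnk2a2 without treated replicate 1, 2 or 3 or vehicle replicate 1, 3 or 5 (adjusted p 0.0682 to 0.212), for Sugct without treated replicate 1 or 2 (adjusted p 0.0602 to 0.108) and for Usp54 without treated replicate 1, 2 or 3 or vehicle replicate 1, 2, 3, 4 or 5 (adjusted p 0.0542 to 0.286). They were also lost for Bri3 without treated replicate 2 or 3 or vehicle replicate 1, 2, 5 or 6 (adjusted p 0.0605 to 0.255), for Pter without treated replicate 2 or 3 or vehicle replicate 1, 2, 3, 4, 5 or 6 (adjusted p 0.0522 to 0.310), for LOC102550246 without treated replicate 1, 2 or 3 or vehicle replicate 1, 3 or 5 (adjusted p 0.0523 to 0.152) and for LOC102549726 without treated replicate 1, 2 or 3 or vehicle replicate 1, 3 or 5 (adjusted p 0.0654 to 0.193).

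Several lists held few or no calls. Of 14 glucocorticoid-responsive genes and metallothioneins 1 rose (Klf9) and 1 fell (Cdkn1a), with a median of 0.38. Mt2A, a metallothionein, had the largest difference of that list at 1.80 with overlapping groups (adjusted p = 0.132), and Dusp1, an early phosphatase gene, read 11.60, 9.75 and 11.28, with treated replicate 2 within and the other treated arrays above the vehicle range. Of 10 thyroid hormone genes 1 rose (Klf9, which thyroid hormone also induces). The urea cycle and amino acid breakdown list, with 34 measured members, held 0 rises and 1 fall (Cbs). No call was made among 19 acute phase proteins (median -0.10), 21 complement and coagulation genes (-0.05), 23 interferon-stimulated genes (0.15), 19 immediate early genes (-0.10), 15 genes of gluconeogenesis and glycolysis (0.02) or 11 of haem synthesis and breakdown (0.03). For instance Pck1, the control enzyme of gluconeogenesis, changed by 0.44 (adjusted p = 0.574).

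Markers of other cells were read on the same arrays, and in this bulk tissue fewer cells of a type and less RNA per cell cannot be told apart. Of 12 Kupffer cell and macrophage markers 10 were below the vehicle mean (median -0.19), and the mean level of the list ran from 9.56 to 9.91 on the treated arrays and from 9.64 to 10.04 in the vehicle group. The 17 lymphocyte markers (median -0.16, 5.79 to 6.01 against 5.91 to 6.28), the 8 neutrophil markers (-0.24, 5.22 to 5.42 against 5.32 to 6.33) and the 17 stellate cell and fibroblast markers (-0.17, 7.53 to 8.04 against 7.66 to 8.10) overlapped likewise. Endothelial markers (14 genes, -0.13), red cell markers (5 genes, -0.26) and cholangiocyte markers (8 genes, 0.03) had overlapping list means too. RMA gives no signal of 0, and none of these markers was called. The part of these small shifts in the changes above was not tested.

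**Figure D5:**
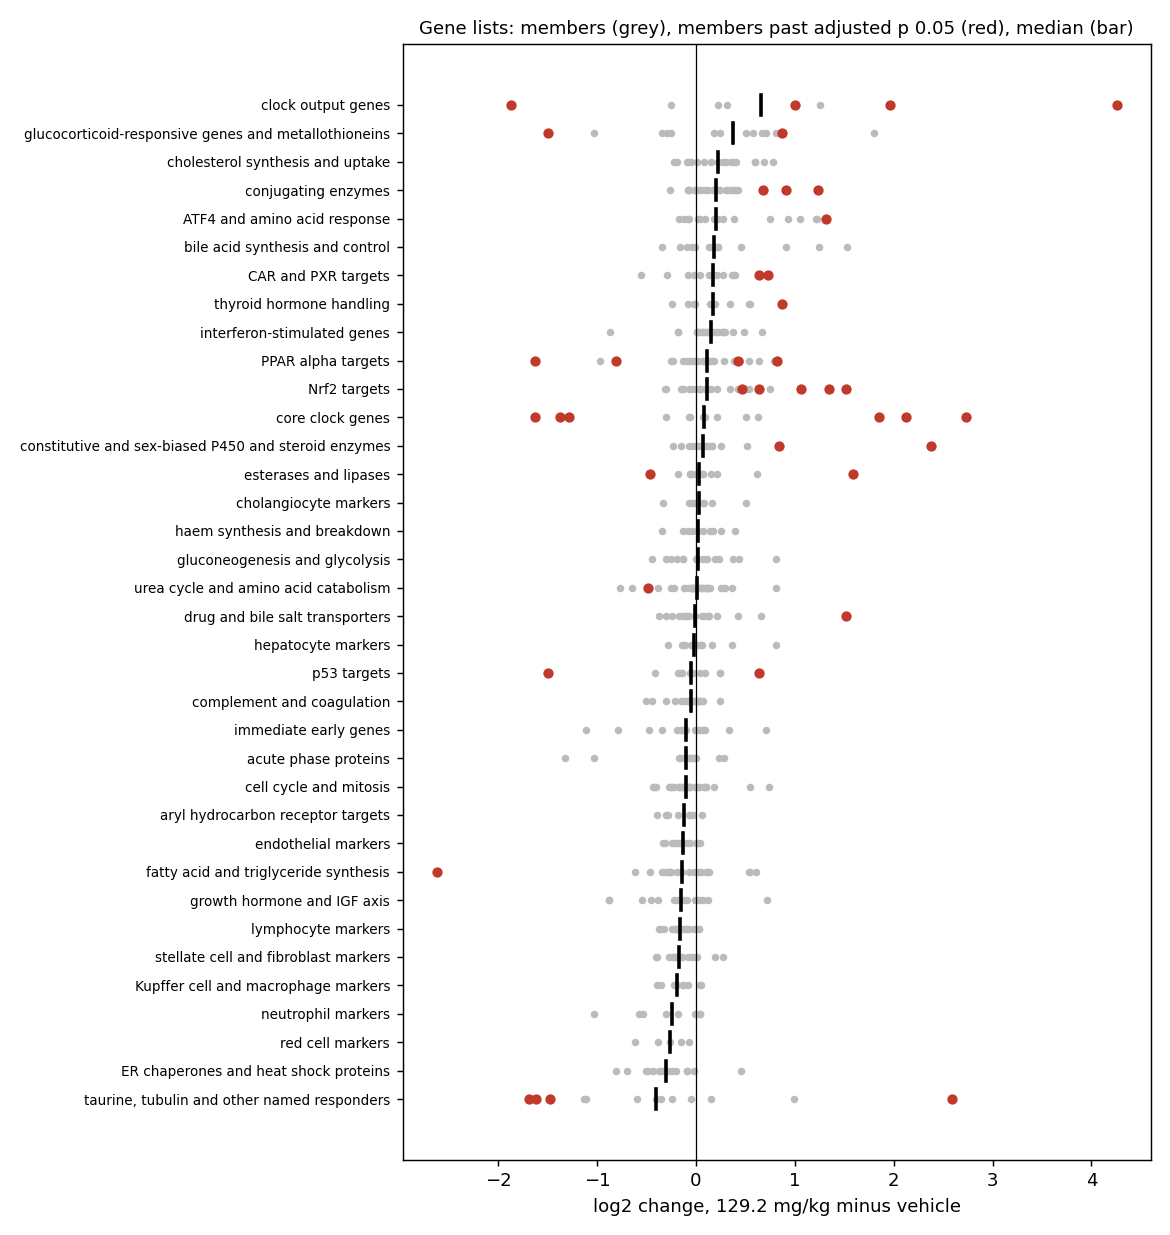
Log2 change at 129.2 mg/kg against vehicle (x axis) of every measured member of the 36 lists (rows), with members past the threshold in red, other members in grey and the median of a list as a black bar. Red points spread widest in the 2 clock lists, and all lists of cell type markers have grey points alone.

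The next question was whether 129.2 mg/kg could be told from the doses beside it, a test that uses no vehicle array but shares the 3 treated arrays. Against 64.6 mg/kg limma called 0 probe sets (1546 at an unadjusted p under 0.05), and 258.1 against 129.2 mg/kg gave 0 as well (1567 unadjusted). Both unadjusted counts are close to 0.05 of the 31042 probe sets, the share that this threshold passes where no probe set differs. Among the 74 called genes the limma p was under 0.05 unadjusted in 23 and 25, in the same order. These genes were chosen through the same 3 treated arrays, so their counts are not independent of that choice. Fits of only the 2 groups compared called 4 and 0 probe sets. Over the 74 called genes the 95% interval of such a difference had a median margin of ± 0.38, unadjusted for the number of genes. For Dbp the 129.2 mg/kg mean minus the 64.6 mg/kg mean was -0.17 (95% interval -0.74 to 0.39), and the 258.1 mg/kg mean minus the 129.2 mg/kg mean was 0.27 (-0.29 to 0.83). For Nfil3 these differences were -0.05 (-0.46 to 0.36) and 0.12 (-0.29 to 0.53). For Hsd17b2 they were -0.09 (-0.56 to 0.38) and 0.24 (-0.23 to 0.72). Each of these intervals includes 0. Among the other clock genes, Bmal1 differed by -0.71 between 129.2 and 258.1 mg/kg (-1.32 to -0.10, adjusted p = 0.914) and Cry1 by 0.55 (0.04 to 1.06, adjusted p = 0.942).

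Other members differed more from a neighbour without passing the adjusted test. Zfp354a averaged 9.47 at 64.6, 11.13 at 129.2 and 11.24 at 258.1 mg/kg, and the first of these steps was 1.66 (95% interval 0.74 to 2.58, adjusted p = 0.794). Gsta3 averaged 8.39, 9.27 and 9.97 at those doses, with steps of 0.88 (0.42 to 1.35, adjusted p = 0.794) and 0.70 (0.23 to 1.17, adjusted p = 0.730). Abcc3 averaged 7.5, 8.45 and 9.26, with steps of 0.94 (0.31 to 1.58, adjusted p = 0.941) and 0.81 (0.17 to 1.45, adjusted p = 0.857). These genes stood between their neighbours or level with the upper one. Ces2c averaged 10.44, 10.57 and 11.59, and the second step was 1.02 (0.50 to 1.53, adjusted p = 0.434). Slc6a6 averaged 8.57, 8.44 and 7.06, and the second step was -1.38 (-2.0 to -0.75, adjusted p = 0.331). Both were close to the 64.6 mg/kg level and farther from that at 258.1 mg/kg. Against the mean of the other 4 doses, a contrast added after the data were seen, 2 probe sets (0.00644%) and 2 genes (0.0141%) differed, Acot1 and St6galnac3, and neither differed from the vehicle past the threshold. Without 129.2 mg/kg replicate 1 or 3 or without 64.6 mg/kg replicate 1 this count was 0, and it was 13 and 7 without 1032.5 mg/kg replicate 1 or 3, 5 without 64.6 mg/kg replicate 3, 4 without 258.1 mg/kg replicate 2 and 1 without 129.2 mg/kg replicate 2.

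A slope fitted over the 15 dosed arrays alone, against dose step, was called for 20 of the 74 genes, 18 rising and 2 falling with dose (3.41% of all genes and 2.28% of all probe sets had a called slope). Per dose step Ces2c rose by 0.63 (SE 0.06, adjusted p = 2.41e-05), Abcc3 by 0.65 (SE 0.07, adjusted p = 0.000128), Gsta3 by 0.61 (SE 0.05, adjusted p = 1.82e-05), Akr7a3 by 0.31 (SE 0.03, adjusted p = 7.15e-05) and Gclm by 0.23 (SE 0.03, adjusted p = 0.000384). The falling slopes were those of Slc6a6 (-0.68, SE 0.08, adjusted p = 0.000128) and Npas2 (-0.48, SE 0.10, adjusted p = 0.0125). Dbp (0.09, SE 0.06, adjusted p = 0.538), Nr1d2 (-0.02, SE 0.04, adjusted p = 0.852), Nfil3 (-0.01, SE 0.04, adjusted p = 0.968), Hsd17b2 (0.00, SE 0.05, adjusted p = 0.994) and Lgalsl (-0.05, SE 0.05, adjusted p = 0.691) had no called slope. The slope uses no vehicle array, but its 15 arrays include the 3 treated arrays whose difference from the vehicle chose these genes, so it is not independent of that choice. The comparisons of the other doses with the vehicle share its 6 arrays, and the group means of Dbp were 10.21 at 64.6, 10.31 at 258.1, 10.22 at 516.2 and 10.57 at 1032.5 mg/kg, while those of Ces2c were 10.44, 11.59, 12.08 and 12.83.

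The 3 treated arrays differed among themselves in other genes. The median SD of a probe set was 0.14 at 129.2 mg/kg and 0.13 in the vehicle group. Cdh17, a cadherin of gut and liver, had the widest range of all genes over the treated arrays, at 9.72, 5.72 and 9.93, and ran from 6.70 to 10.94 in the vehicle group. Ubd, a ubiquitin-like protein of inflammation, read 9.22, 6.49 and 9.61. Fgf21, a hormone of the fasted liver, read 8.01, 7.20 and 9.64, against 7.28 to 9.36 in the vehicle group. Treated replicate 2 was the low array for Cdh17 and Ubd and replicate 3 the high one for Fgf21. Treated replicate 3 was the low array for Nipbl, a cohesin loader, at 7.10 against 8.86 and 8.71, and vehicle replicate 6 was the low array of its group at 7.23. The same arrays were lowest for Ccar1 (7.73 and 8.80), Cpne3 (7.64 and 7.32) and Tent5a (7.73 and 7.66). These genes were named because their ranges are among the 25 widest, after their values were seen, and none was called.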

How the data were processed

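Expression was measured on an Affymetrix rat array from 100 ng of liver RNA per sample. The deposited values are log2 signals of RMA, 1 per probe set and array, per the submitters' processing notes, whose software version is not given in the sources used here. They were used as deposited, and for arrays their number limits the precision. limma 3.58.1 in R 4.3.3 (lmFit, eBayes, no covariate) fitted all 21 arrays with a coefficient per dose group from the labels. P-values are two-sided and Benjamini-Hochberg adjusted over all 31042 probe sets, with a threshold of 0.05.

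A gene is read by the brightest probe set that names it alone in the platform annotation, and symbols follow RefSeq GRCr8, used for names and promoters. The text names every gene called by its brightest probe set, list members (up to 4 called per list, otherwise the 2 brightest, and further members beside them chosen after their values were seen) and fixed index genes. Called probe sets of any brightness name 81 different genes. Those called on another probe set alone are Dapk1, Fbxo3, Pdia3, Ptprk, Sub1, Tmem33 and Trib3. The members and the 36 lists were chosen with earlier results of these data known. The script was tested on simulated data. Alternatives were other scalings, filters, variance models, array weights, a replicate block and each array left out. The antioxidant, D-box and E-box motifs were as planned, and the shorter ROR core was chosen after the data were seen.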

Additional observations from a re-analysis of the deposited data

Results flagged for a closer look

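In 4 of the 74 called genes 1 vehicle array lay far from the other 5 by Dixon's test, which chance alone gives in about 1 in 20 groups. Vehicle replicate 4 read 11.81 for Akr7a3, where the other vehicle arrays averaged 11.26. Vehicle replicate 6 read 9.46 for Ier5 against a mean of 8.58, vehicle replicate 2 read 4.83 for Per3 against 5.34, and vehicle replicate 1 read 5.37 for Pter against 5.59. None of these arrays reached the treated arrays of its gene.

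Against the mean of the other 4 doses, a contrast added after the data were seen, 129.2 mg/kg differed in 2 probe sets (0.00644%), and neither gene was called against the vehicle. For Acot1 the signals differed by -3.55 (SE 0.53, limma adjusted p = 0.0235), a value that is no fold because its means at 129.2 and 64.6 mg/kg lie below the arrays' lower quartile of 5.03. It averaged 3.69 at 129.2 mg/kg and 3.45, 7.46, 8.30 and 9.74 at 64.6, 258.1, 516.2 and 1032.5 mg/kg. For St6galnac3, a sialyltransferase, the signals differed by 1.06 (SE 0.16, adjusted p = 0.0235), again no fold. It read 5.98, 5.48 and 5.98 on the 3 arrays and averaged 4.82, 4.76, 4.79 and 4.65 at the other doses, all below that quartile, and 5.11 in the vehicle group. Both calls were lost without 64.6 mg/kg replicate 1 (adjusted p = 0.0573 for both), without 129.2 mg/kg replicate 1 (0.101 and 0.166) and without 129.2 mg/kg replicate 3 (0.0842 and 0.146). Without 129.2 mg/kg replicate 2 the adjusted p was 0.295 for Acot1 and 0.0401 for St6galnac3.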

How the results depend on the processing

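Against the vehicle the main count of 108 called probe sets (69 higher, 39 lower) stayed between 81 and 113 in fits of only the groups compared (81), with cyclic loess (109, of which 60 were higher and 49 lower), with array medians subtracted (95), without dim probe sets (113), with 1 probe set per gene (86), with an intensity trend and robust variance (95) and with the 5' minus 3' difference as covariate (100). Array weights gave 2129 (1001 higher, 1128 lower), with a weight of 6.18 on treated replicate 2 against 0.61 and 0.50 on replicates 1 and 3, and 1714 (904 higher, 810 lower) when estimated from the 9 arrays alone, an alternative added after the data were seen. The replicate number as a block gave 47 (32 higher, 15 lower). Vehicle replicates 4 to 6 share their number with no treated array, so this block kept them out of the comparison. Whether the replicate number itself played a part was not tested. Same-numbered arrays of the groups deviated with r = -0.12, -0.09 and 0.07, so the numbers were not taken as pairs. Leaving out 1 array gave 34 to 104 probe sets, 21 to 65 higher and 10 to 41 lower. Against 64.6 mg/kg the count of 0 became 4 with only the groups compared and 206 with array weights. For 258.1 against 129.2 mg/kg it became 568 with array weights, 5 with the replicate block, 1 with the covariate and 0 to 1 with an array left out. Against the mean of the other 4 doses the count of 2 ran from 0 to 13 with an array left out.

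No called gene changed direction under these settings except by choice of probe set: the next brightest probe set gave -0.039 for Bri3, -0.133 for Pter and -0.084 for Tbcel. Of the called genes with a second probe set, 25 others lost their call on it and 4 kept it. Of the 74 called genes 20 kept their call under every other setting. The number that lost it was 0 with array weights, without dim probe sets or with 1 probe set per gene, 25 with only the groups compared and 43 with the replicate block. The number of arrays limits what differences between doses could be called: the unadjusted 95% margin of such a difference had a median of 0.25 over all probe sets, while a difference of 1.66 (Zfp354a) missed the adjusted threshold.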
